A study of Mus musculus with 13 samples.

Results

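The ephrin ligands and EPH receptors described here are 6 genes, *Epha2*, *Ephb2*, *Ephb4*, *Efna1*, *Efnb1* and *Efnb2*, taken from the table by their symbols, and they are 6 of the 13222 genes in the table. The mouse family has 22 genes, 14 receptors and 8 ligands, of which 8 receptors and 7 ligands were listed. The 9 listed family genes other than these 6 are given after them.

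RNA was taken from 4T1-Thy1.1 cells, a line made from the BALB/c mouse mammary carcinoma line 4T1 by adding a Thy1.1 transgene. Per the labels all cells grew in DMEM/F12 with FBS, whereas the methods give RPMI medium for culturing 4T1 cells. They were kept in wells of a 12-well plate, grown to 25% confluency, and all libraries therefore carry the transgene, controls included. The wells then stayed untreated (control, n = 3) or received doxorubicin, an anthracycline that poisons topoisomerase II, at 200 ng/mL (DOX, n = 4), recombinant mouse IL-17A, an inflammatory cytokine, at 25 ng/mL (IL-17A, n = 3), or both at these doses (DOX+IL-17A, n = 3), for 48 hours. The labels do not say whether libraries of a condition came from separate cultures, so p-values measure the spread between these libraries, which may be technical, and all of them come from a single cell line.

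EPH receptors are receptor tyrosine kinases, and their ephrin ligands stay on the membrane of the cell that makes them, so that signaling needs contact between cells. Ephrin-A ligands are held by a GPI anchor and mostly bind EPHA receptors, while ephrin-B ligands span the membrane, mostly bind EPHB receptors and also signal back into their own cell. In epithelia the pathway is known for cell sorting and boundary formation, and it changes cell shape and adhesion.

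Values are TMM-normalized CPM (reads of each library scaled to a common effective size), counted at the 3' ends of transcripts, so that levels of different genes can be set side by side without a correction for length. Libraries held 4445592 to 16930600 reads on listed genes, and 3 reads, taken as the limit of detection, stood for 0.183 to 0.613 units. This limit covers counting error only. The 6 genes had 30 to 992 reads in every library and all of them passed the filter on low counts. A gene is called where the limma test across all 12319 genes tested gave a Benjamini-Hochberg adjusted p under 0.05 and the fold change was over 2. Log2 fold changes are differences of mean log2(value + 1), which understates the change of low genes, and a level said to be so many fold lower is the ratio of the means. All 6 epithelial markers listed (*Epcam*, *Krt7*, *Krt8*, *Krt18*, *Krt19*, *Cdh1*) were over 3 reads in every library, and 0 of 5 endothelial markers were in the table. Skeletal muscle and red blood cell markers summed to 190 and 66.5 units in DOX replicate 1, against at most 22.7 and 5.47 in the other DOX libraries. In control they reached 28.1 and 14.4 units, both in replicate 1. Of 5 fibroblast markers 4 (*Col1a1*, *Col1a2*, *Dcn*, *Pdgfra*) were listed. They summed to between 23.8 units, in a DOX library, and 97.8, in control replicate 1. Values without DOX replicate 1 are given for *Ephb2*.

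The promoters of 4 family genes that fell with DOX are shown because they can be set beside each other. Each window is the 250 bases before the RefSeq start of the gene (GRCm38.p6), 5' to 3' on the gene's strand, with GC boxes (GGGCGG) and CCAAT boxes (CCAAT) on either strand in capitals. They lie at chr4:136836013-136836262 (minus strand) for *Ephb2*, chr6:41605261-41605510 (plus strand) for *Ephb6*, chr3:89338029-89338278 (minus strand) for *Efna4* and chr17:62881318-62881567 (minus strand) for *Efna5*. The RefSeq start of *Ephb2* lies upstream of the GENCODE gene given below, and its first bases were not found in a GENCODE transcript.
Ephb2: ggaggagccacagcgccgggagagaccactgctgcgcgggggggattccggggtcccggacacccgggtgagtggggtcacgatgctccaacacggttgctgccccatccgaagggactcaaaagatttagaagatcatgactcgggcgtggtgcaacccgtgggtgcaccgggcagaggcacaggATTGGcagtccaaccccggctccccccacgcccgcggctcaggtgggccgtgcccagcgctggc
Ephb6: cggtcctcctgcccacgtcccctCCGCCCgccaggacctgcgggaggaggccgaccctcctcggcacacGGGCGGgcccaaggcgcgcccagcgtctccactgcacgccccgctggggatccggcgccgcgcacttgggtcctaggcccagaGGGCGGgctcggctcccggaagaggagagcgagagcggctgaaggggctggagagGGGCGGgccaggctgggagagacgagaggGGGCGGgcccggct
Efna4: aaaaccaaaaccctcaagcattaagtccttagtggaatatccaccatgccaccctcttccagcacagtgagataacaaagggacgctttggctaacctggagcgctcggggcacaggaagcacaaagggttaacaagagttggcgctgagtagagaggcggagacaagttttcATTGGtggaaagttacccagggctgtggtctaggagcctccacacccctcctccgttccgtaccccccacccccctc
Efna5: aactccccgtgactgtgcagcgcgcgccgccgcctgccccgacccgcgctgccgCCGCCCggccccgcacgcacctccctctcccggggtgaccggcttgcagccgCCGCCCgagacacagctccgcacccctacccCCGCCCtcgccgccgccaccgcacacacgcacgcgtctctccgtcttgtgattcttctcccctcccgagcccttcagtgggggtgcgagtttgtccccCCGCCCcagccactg

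The 4 windows did not share a motif. *Ephb2* and *Efna4* held 1 CCAAT box each and 0 GC boxes, while *Ephb6* held 5 GC boxes and *Efna5* 4, with 0 CCAAT boxes. GC boxes were in 59.0% and CCAAT boxes in 37.4% of the windows of 10085 listed genes. Among all 27025 windows the shares were 32.9% and 34.5%. TATA boxes (TATAAA; 13% of all windows), the TCF/LEF core (CTTTGAT; 3.23%) and E-boxes (CACGTG; 6.05%), also searched on both strands, had 0 matches in these 4 windows. A match to these letters is a description and not a binding site. Windows were found for 14 of the 15 listed family genes, and all 6 genes described here have one.

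Of the 6 genes only *Ephb2* was called, and it was lower in every comparison of cells with DOX against cells without it. That the other genes of the 6 were not called does not show that they were unchanged. Some of their intervals, given below, reach past a 2-fold change. EPHB2 is a receptor for ephrin-B ligands and a known target of beta-catenin and TCF in the intestinal epithelium. The gene (ENSMUSG00000028664.14) is protein coding and lies at chr4:136647539-136835988 of mm10, minus strand.

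*Ephb2* stood at 17.1, 26.7 and 20.4 units in control replicates 1, 3 and 5, and at 18.9, 32.2 and 28.9 in IL-17A replicates 2, 3 and 5. With DOX alone the values were 10.9, 4.60, 4.19 and 5.72 in replicates 1 to 4. With DOX+IL-17A they were 9.61, 6.45 and 3.62 in replicates 2, 3 and 5. All 7 libraries with DOX lay below all 6 without it, which was also so for 7.09% of the genes tested. The highest DOX library was replicate 1, the one highest in muscle and red blood cell markers.

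The mean of *Ephb2* fell from 21.4 ± 4.87 (SD, n = 3) in control to 6.35 ± 3.08 (n = 4) with DOX, 3.37-fold lower. The log2 fold change was -1.67 (95% interval -2.44 to -0.89; limma, adjusted p = 0.0052). In DOX against control 15.3% of genes were called, 6.18% as lower, and *Ephb2* was the 1 gene called of the 6. It was also the 1 gene of the 6 whose groups did not overlap, which held for 15.2% of all genes on the lower side. Without DOX replicate 1 the log2 fold change of *Ephb2* was -1.925 (adjusted p = 0.00319 by limma). Without that library and control replicate 1, which differed most from its group, the log2 fold change was -2.07 (adjusted p = 0.00243 by limma). This second fit was added after the data were seen.

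With both agents *Ephb2* was at 6.56 ± 2.997 (SD, n = 3), 3.26-fold below control, with a log2 fold change of -1.62 (-2.45 to -0.80; limma, adjusted p = 0.011). Here 12.9% of genes were called, 5.95% as lower, and again 1 of the 6. This call was lost when the fit held only the groups compared (adjusted p = 0.0515 by limma), with the same direction. Against IL-17A alone, at 26.7 ± 6.92 (n = 3), cells with both agents had 4.07-fold less *Ephb2*, a log2 fold change of -1.92 (-2.75 to -1.09; limma, adjusted p = 0.00615). In that comparison 9.84% of genes were called, 4.92% as lower, and *Ephb2* was the 1 of the 6. This comparison shares no library with DOX against control, whereas the 2 comparisons of DOX+IL-17A share the DOX+IL-17A libraries. The 2 comparisons against control share the control libraries, and all of them use 1 estimate of the spread from the 13 libraries.

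No effect of IL-17A on *Ephb2* was detectable in these libraries. Its log2 fold change was 0.30 (-0.53 to 1.12; limma, adjusted p = 0.96) for IL-17A against control and 0.04 (-0.73 to 0.82; limma, adjusted p = 0.998) when IL-17A was added to DOX. Between these 2 effects the log2 difference was -0.25 (-1.39 to 0.88; limma, adjusted p = 0.951). The order of the means was IL-17A, control, DOX+IL-17A and DOX, and of these neighbours only control and DOX+IL-17A differed by the test.

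The summed level of the 6 epithelial markers was 1930 to 2250 units in control and 1710 to 2050 with IL-17A, against 935 to 1030 with DOX and 816 to 1030 with both. The summed level of the 3 listed immune markers (*Ptprc*, *Cd68*, *Cd74*) was 9.92 to 19.1 in control and 11.8 to 18 with IL-17A, against 34.2 to 46.3 with DOX and 19.3 to 36.4 with both. Their part in the *Ephb2* result was not tested. In these bulk samples fewer cells of a type and less RNA per cell cannot be told apart.

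**Figure D1:**
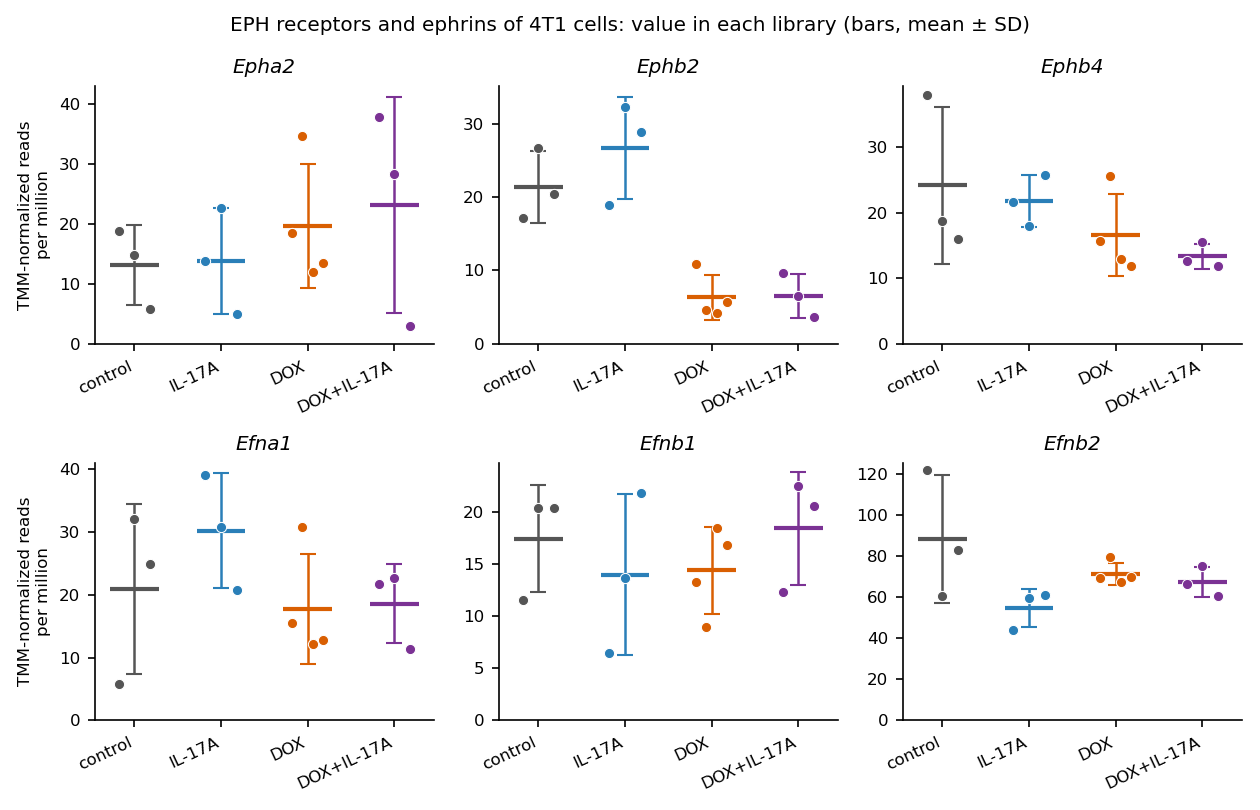
Each point is a library and shows the TMM-normalized read value of the gene named above the panel, with the mean (thick line) and SD (thin bars) of each condition. *Ephb2* separates the 7 libraries with DOX (3.62 to 10.9) from the 6 without (17.1 to 32.2), while for the other 5 genes libraries with and without DOX overlap.

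*Ephb4*, the other EPHB receptor of the 6, known for its pairing with ephrin-B2 in blood vessels, did not pass the test in any comparison. It stood at 37.9, 18.7 and 15.9 units in control and at 21.6, 17.9 and 25.8 with IL-17A. It stood at 15.7, 25.6, 13 and 11.9 with DOX and at 12.7, 15.5 and 11.9 with DOX+IL-17A. The DOX+IL-17A libraries lay below all control and all IL-17A libraries, so that 2 of the 6 genes, *Ephb2* and *Ephb4*, did not overlap in these 2 comparisons, against 14.5% and 15.5% of all genes on the lower side. The log2 fold changes were -0.72 (-1.46 to 0.03; limma, adjusted p = 0.168) and -0.66 (-1.41 to 0.08; limma, adjusted p = 0.23). DOX alone overlapped with control, at -0.48 (-1.18 to 0.22; limma, adjusted p = 0.306). The order was control, IL-17A, DOX and DOX+IL-17A, with no pair of neighbours past the test. *Ephb4* (ENSMUSG00000029710.15; chr5:137350109-137378669, plus strand, mm10) overlaps *Zan* on the minus strand, and the strand setting of the counting is not given in the sources used here.

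*Epha2*, a receptor of ephrin-A1 that many carcinomas express, varied widely between libraries of a condition. It stood at 18.8, 14.8 and 5.78 units in control replicates 1, 3 and 5, and at 13.9, 22.6 and 5.004 in IL-17A replicates 2, 3 and 5. With DOX it stood at 18.5, 34.6, 12.0 and 13.4, and with DOX+IL-17A at 37.8, 28.3 and 3.06 in replicates 2, 3 and 5. In each of the 3 conditions that have a replicate 5, that replicate was the lowest, and the lowest of all 13 libraries was DOX+IL-17A replicate 5.

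The *Epha2* values of replicate 5 rested on 49 reads in control, 49 in DOX+IL-17A and 61 in IL-17A, well over the 3-read limit. Replicate 5 was lowest in these 3 conditions for 3.89% of the genes tested, and for none of the other 5 genes described here. The SD of *Epha2* within conditions was 1.1 on the log2 scale, larger than that of 98.9% of genes tested, and the median for genes with a mean of 5 to 50 units was 0.432. The labels do not say what a shared replicate number stands for.

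**Figure D2:**
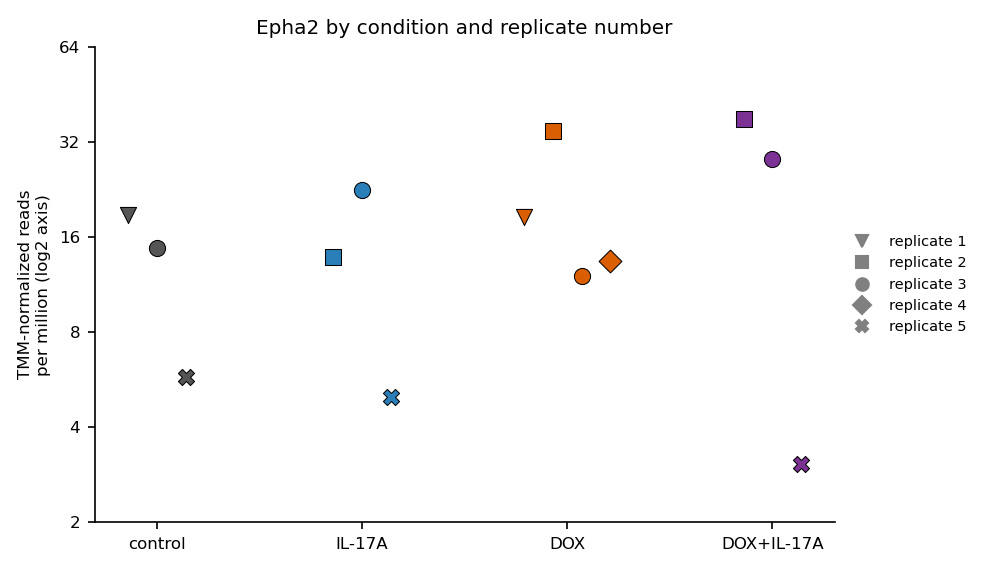
*Epha2* in each library, as the TMM-normalized read value on a log2 axis, by condition, with the marker shape giving the replicate number in the labels. The 3 libraries numbered 5 are the 3 lowest, at 5.78 in control, 5.004 in IL-17A and 3.06 in DOX+IL-17A.

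With this spread *Epha2* could not be shown to differ in any comparison. Its log2 fold change was 0.57 (-0.87 to 2.003; limma, adjusted p = 0.574) for DOX against control and 0.38 for both DOX+IL-17A against control (limma, adjusted p = 0.755) and DOX+IL-17A against IL-17A (limma, adjusted p = 0.777). The intervals reach past a doubling, so that a 2-fold change is within them. The order of the means was DOX+IL-17A, DOX, IL-17A and control. *Epha2* (ENSMUSG00000006445.3) lies at chr4:141301240-141329384, plus strand, of mm10.

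*Efna1*, a ligand of EPHA2, also varied widely, with an SD within conditions of 0.748 on the log2 scale, above 90.7% of genes. It stood at 5.75, 32.03 and 25 units in control, at 15.5, 30.8, 12.2 and 12.8 with DOX, at 21.7, 22.7 and 11.4 with DOX+IL-17A and at 39.1, 30.8 and 20.8 with IL-17A. Control replicate 1 was the lowest of the 13 libraries and IL-17A replicate 2 the highest, and the conditions overlapped. For *Efna1* it was -0.03 on the log2 scale for DOX against control (-1.06 to 0.99; limma, adjusted p = 0.969). It was 0.75 for IL-17A against control (-0.34 to 1.85; limma, adjusted p = 0.959) and -0.69 for DOX+IL-17A against IL-17A (-1.78 to 0.41; limma, adjusted p = 0.413). Means were in the order IL-17A, control, DOX+IL-17A and DOX, and no neighbours differed by the test. *Efna1* (ENSMUSG00000027954.9) lies at chr3:89271733-89281142, minus strand, of mm10.

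*Efnb1*, a ligand of EPHB receptors, stood at 11.5, 20.4 and 20.4 units in control and at 13.3, 8.98, 18.5 and 16.8 with DOX. It stood at 12.3, 22.4 and 20.6 with DOX+IL-17A and at 6.42, 13.7 and 21.8 with IL-17A. The lowest and the second highest of the 13 libraries were both of the IL-17A condition, and all conditions overlapped. The log2 fold changes ran from -0.40 for IL-17A against control (-1.28 to 0.48) to 0.48 for DOX+IL-17A against IL-17A (-0.40 to 1.36), with adjusted p = 0.959 and 0.486 by limma. The order was DOX+IL-17A, control, DOX and IL-17A, with no neighbours past the test. *Efnb1* (ENSMUSG00000031217.8) lies at chrX:99136130-99148991, plus strand, of mm10.

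*Efnb2*, the ligand of EPHB4 and EPHB2, had the highest level of the 6 and the smallest spread, an SD of 0.28 on the log2 scale. It stood at 121.6, 60.4 and 82.9 units in control and at 69.3, 79.3, 67.2 and 69.8 with DOX. With DOX+IL-17A it stood at 66.3, 74.97 and 60.3, and with IL-17A at 44.2, 59.4 and 60.8. Control replicate 1 stood above all other libraries, and the IL-17A libraries overlapped with control replicate 3. *Efnb2* fell short of a call for IL-17A against control, with a log2 fold change of -0.64 (-1.15 to -0.12; limma, unadjusted p = 0.0191, adjusted p = 0.959). For DOX against control it was -0.25 (-0.73 to 0.24; limma, adjusted p = 0.453), an interval that leaves out a halving. The order was control, DOX, DOX+IL-17A and IL-17A, with no neighbours past the test. *Efnb2* (ENSMUSG00000001300.16; chr8:8617434-8661242, minus strand, mm10) overlaps 3 genes of unsettled type (TEC) on its own strand.

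For IL-17A, with or without DOX, 0 of the 6 genes were called by limma, and 0 by voom, edgeR and DESeq2 on the recovered reads. For IL-17A against control 0.00812% of all genes were called and 3.08% had an unadjusted p under 0.05, among them 1 of the 6, *Efnb2*. For DOX+IL-17A against DOX 0.438% were called and 6.35% had an unadjusted p under 0.05, with 0 of the 6 among them. Groups overlapped for all 6 genes in both comparisons, where 6.04% and 10.3% of all genes did not overlap. The interaction, which asks whether IL-17A acted differently in the presence of DOX, passed an adjusted p under 0.05 for 0.0% of all genes and an unadjusted one for 4.51%, with 0 of the 6 in either. Of the 8 tested family genes outside the 6, 0 were called in these 3 tests by limma, voom, edgeR or DESeq2. The genes with an unadjusted p under 0.05 by limma numbered 3 without DOX, 4 with DOX and 1 for the interaction. The 3 were *Epha1*, *Epha4* and *Ephb6*, all lower with IL-17A. The 4 were *Ephb3* (log2 fold change -0.74), *Ephb6* (-1.14), *Efna4* (-0.66) and *Efnb3* (-0.89), also lower with IL-17A. For the interaction it was *Epha4* (log2 difference 1.24).

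**Figure D3:**
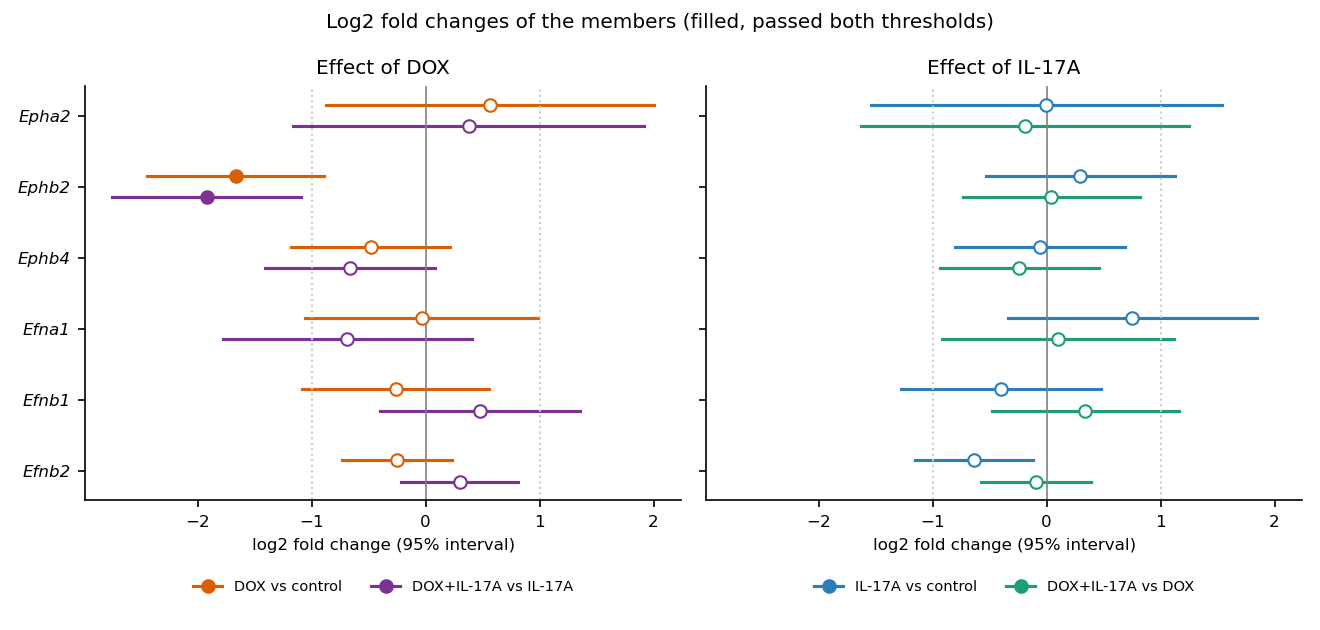
Log2 fold changes of the 6 genes with 95% intervals from limma, for the effect of DOX (left, without and with IL-17A) and of IL-17A (right, without and with DOX). Filled points were called, and dotted lines mark a 2-fold change. *Ephb2* is the 1 gene with filled points, at -1.67 and -1.92.

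DOX against control and DOX+IL-17A against IL-17A share no library. The 6 genes had the same sign in both for *Ephb2*, *Ephb4*, *Epha2* and *Efna1*, 4 of 6, and opposite signs for both ephrin-B ligands. Over all genes tested the share with the same sign was 76.0%. The median log2 fold change of the 6 was -0.26 and -0.18, beside 0.09 and 0.02 over all genes. Scaling by library size alone moved the median of all genes to 0.24 and 0.22, and *Ephb2* was called under it as well.

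Of the 9 listed family genes outside these 6, 8 were tested, and 4 were called in DOX against control, 3 as lower (*Ephb6*, *Efna4*, *Efna5*) and 1 as higher (*Efnb3*). Of all genes tested 15.3% were called in that comparison, 6.18% as lower and 9.15% as higher. The 4 calls held without DOX replicate 1. The median log2 fold change of the 8 was -0.85, beside 0.09 over all genes. *Epha8*, at 0 to 1.64 units, was not tested.

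*Efna4*, an ephrin-A ligand, stood at 19.8, 18.4 and 16.4 units in control and 17.2, 14.9 and 18.2 with IL-17A, against 5.23, 7.66, 5.45 and 7.33 with DOX and 2.04, 3.77 and 5.87 with DOX+IL-17A. All libraries with DOX lay below all without. Its log2 fold change was -1.38 for DOX against control (-2.04 to -0.73; limma, adjusted p = 0.00585), 2.83-fold lower, and -1.94 for DOX+IL-17A against IL-17A (-2.64 to -1.23; limma, adjusted p = 0.00222), 4.31-fold lower. *Efna4* (chr3:89333390-89338028, minus strand, mm10) overlaps the antisense gene *4731419I09Rik*.

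*Efna5*, the most abundant ephrin-A ligand in this table, stood at 96.9, 100.1 and 87.7 units in control and 85.9, 87.1 and 102.5 with IL-17A. It stood at 54.2, 37.2, 33.4 and 42.5 with DOX and 55.0, 53.8 and 38.1 with DOX+IL-17A, again with all libraries with DOX below all without. *Efna5* had a log2 fold change of -1.18 for DOX against control (-1.63 to -0.74; limma, adjusted p = 0.00135), 2.27-fold lower. With DOX+IL-17A it was -0.96 against control (limma, adjusted p = 0.0097) and -0.91 against IL-17A (limma, adjusted p = 0.0163), past the p-value but under a 2-fold change. In these comparisons 8.34% and 6.75% of all genes were lower at an adjusted p under 0.05.

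*Ephb6*, a receptor whose kinase domain is inactive, stood at 8.63, 7.85 and 10.3 units in control, 2.48, 5.66 and 5.004 with IL-17A, 2.25, 4.38, 1.82 and 1.70 with DOX and 0, 1.19 and 0.687 with DOX+IL-17A. The DOX and IL-17A libraries overlapped, and both lay below control, although IL-17A against control did not pass (log2 fold change -0.93; limma, adjusted p = 0.959). *Ephb6* had a log2 fold change of -1.54 for DOX against control (-2.34 to -0.73; limma, adjusted p = 0.00984), a call lost with a pseudocount of 0.1 (limma, adjusted p = 0.0822). For DOX+IL-17A against IL-17A it was -1.74 (-2.60 to -0.89; limma, adjusted p = 0.0119). Without DOX+IL-17A replicate 2 it was -1.43 (limma, adjusted p = 0.0542) and without IL-17A replicate 3 -1.56 (limma, adjusted p = 0.06), large in both but past the threshold in neither. For DOX+IL-17A against control the log2 fold change of *Ephb6* was -2.67 (-3.53 to -1.81; limma, adjusted p = 0.00065), called under all 25 settings. In that comparison 5.95% of all genes were called as lower. The DOX+IL-17A libraries held 0 to 12 reads of *Ephb6*.

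*Efnb3*, the ephrin-B ligand known from nerve cells, was near the limit of detection without DOX, at 1, 5 and 2 reads in control and 0 in each IL-17A library. With DOX it stood at 2.82, 2.74, 4.33 and 2.32 units and with DOX+IL-17A at 0.613, 0.993 and 2.12. All 7 libraries with DOX were above all 6 without, as for 7.01% of all genes. Of these, DOX+IL-17A replicate 2 held 3 reads, the limit of detection, while control replicate 3 held 5 reads in a deeper library. The log2 fold change was 1.69 for DOX against control (1.01 to 2.37; limma, adjusted p = 0.00216). DOX+IL-17A against control, at 0.80 (0.07 to 1.53, adjusted p = 0.118 by limma), was called under 0 of 24 settings. Against IL-17A alone, at 0 reads, DOX+IL-17A was at least 3.53-fold higher, with a floor of 3 reads in each library (limma, adjusted p = 0.0439). Same-numbered libraries of these 2 conditions deviated together, and adding the number to the fit as a block lost the call (limma, adjusted p = 0.0611). It was called under 12 of 24 settings, and of the fits that left out 1 library it was kept in 3, those without control replicate 1, DOX replicate 3 or DOX+IL-17A replicate 2 (limma, adjusted p up to 0.136 in the rest).

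Of the receptors left, *Epha4* was called as higher in DOX+IL-17A than in IL-17A, as 4.92% of all genes were. It stood at 25.4, 29.7 and 43.1 units with both agents and 10.5, 20.9 and 8.94 with IL-17A, against 21.3, 22.9 and 23.6 in control and 20.2, 19.3, 27.1 and 27.3 with DOX. The log2 fold change was 1.28 (0.61 to 1.95; limma, adjusted p = 0.0162), and the adjusted p was 0.053 to 0.0701 without DOX+IL-17A replicate 5, IL-17A replicate 2 or IL-17A replicate 5. *Epha1* was at 16.1 ± 4.97 (n = 3) in control, and about as low with IL-17A alone (7.43 ± 2.73, n = 3) as with DOX (7.44 ± 0.788, n = 4) or both (7.20 ± 4.35, n = 3). IL-17A against control had a log2 fold change of -1.02 (limma, unadjusted p = 0.0192, adjusted p = 0.959). DOX against control had one of -0.98 that did not pass by limma (adjusted p = 0.067) but did by DESeq2 (0.0287) and without control replicate 3 (limma, adjusted p = 0.0451), and it overlaps *Zyx* on the other strand. *Ephb3* was at 17.8 ± 0.873 in control and 26.8 ± 4.56 with DOX (limma, adjusted p = 0.178). *Efna2* was at 0 to 2.80 units throughout.

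**Figure D4:**
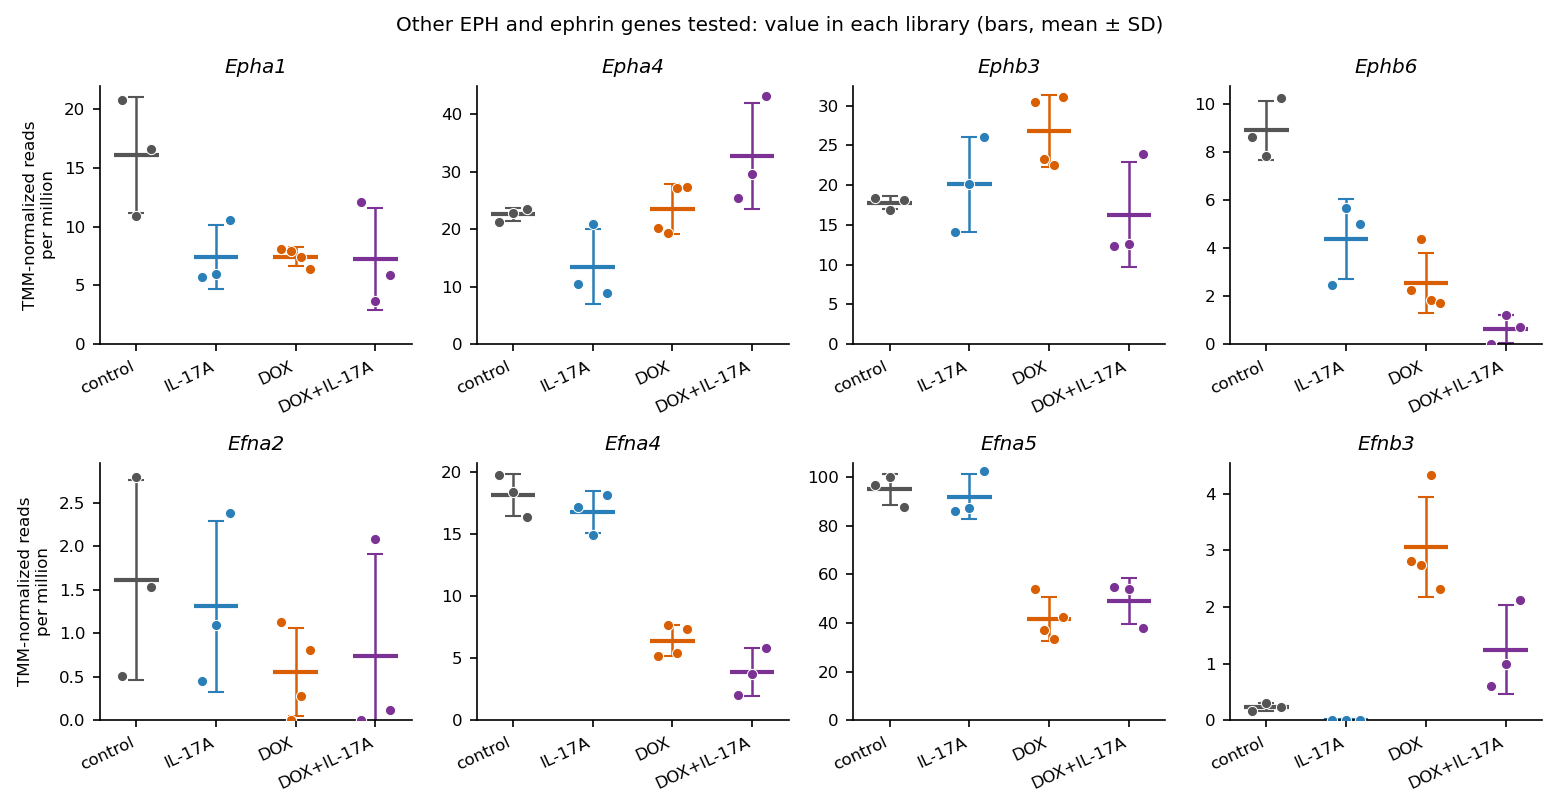
TMM-normalized read values in each library for the 8 tested family genes outside the 6, with mean and SD (bars cut off at 0). *Efna4* and *Efna5* are lower in all 7 libraries with DOX and *Efnb3* is higher, while for *Ephb6* the IL-17A libraries (2.48 to 5.66) also lie under control (7.85 to 10.3), a difference that did not pass the test. DOX+IL-17A replicate 2 held 3 reads of *Efnb3*.

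Genes around the receptors were counted by role. Of 24 tested genes for proteins that bind or act next to EPH receptors, such as SRC family kinases and NCK adaptors, 0 were called by limma or voom in DOX against control, with 5 at an unadjusted p under 0.05, as 36.5% of all genes were, and 2, *Ptk2* and *Rasa1*, named after their values were seen, were called by both edgeR and DESeq2. Of 20 genes of ephrin and EPH cleavage and endocytosis, 1 was called as higher (*Cltb*) and 1 as lower (*Adam10*), beside 9.15% and 6.18% of all genes. Of 6 genes of ephrin-B reverse signaling, 0 were called in DOX against control by limma, voom, edgeR or DESeq2, with 1 at an unadjusted p under 0.05. In that comparison the medians of the 3 lists were 0.06, -0.23 and 0.34, beside 0.09 over all genes. For the 2 comparisons of IL-17A, without and with DOX, and for the interaction 0 genes of these 3 lists were called by limma, voom, edgeR or DESeq2, with 1, 4 and 3 at an unadjusted p under 0.05. In DOX+IL-17A against control, where 12.9% of all genes were called, limma called 0 of the 24 genes. Of the 20 it called 2 as higher and 2 as lower, and voom and edgeR called *Adam10*, *Cltb*, *Mmp9* and *Mmp14*. Of the 6 reverse signaling genes it called 1 as higher, *Ptpn13*, also called by voom, edgeR and DESeq2. *Mmp9*, *Mmp14* and *Ptpn13* were named after their values were seen.

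*Adam10*, the metalloprotease that cuts ephrins and EPH receptors, fell from 97.2 ± 28.4 (n = 3) in control to 40.9 ± 9.54 units (n = 4) in DOX, at a log2 fold change of -1.21 (-1.81 to -0.61; limma, adjusted p = 0.00727). *Cltb*, a clathrin light chain, rose from 32.7 ± 14.6 to 67.2 ± 2.54 units (limma, adjusted p = 0.00607). In DOX against control *Adam10* was called under all 25 settings tried and *Cltb* under 22. *Cltb* changed by less than 2-fold with DESeq2 and without control replicate 3 or 5 (0.92 and 0.94 on the log2 scale). In DOX+IL-17A against control *Adam10* was called under 18 settings and *Cltb* under all 25. Against IL-17A, *Adam10* fell short (log2 fold change -0.82; limma, adjusted p = 0.0845) and was called under 1 of 25 settings, *Cltb* under all 25.

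The genes whose pattern over the 13 libraries was most like that of *Ephb2* were *Ccni*, which encodes cyclin I, and *P4ha1*, a collagen prolyl 4-hydroxylase subunit. After each gene was centred, their log2(value + 1) differed from *Ephb2* by a root mean square of 0.347 and 0.351, against a median of 1.08 over 9484 genes with a mean of at least 5 units. Both were lower with DOX, with log2 fold changes of -1.65 and -1.51 against control. They were picked for their likeness to *Ephb2* in these same libraries, so this fall follows from the choice.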

How the data were processed

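Bulk RNA of 13 libraries of 4T1-Thy1.1 cells was sequenced from transcript 3' ends as single 75 base reads (QuantSeq FWD). Per the labels and the methods, the authors used FastQC, Trimmomatic, STAR (mm10) and featureCounts, normalized by TMM and tested with voom and limma. The annotation and the strand setting are not given in the sources used here. The deposited table holds a normalized signal of 13223 entries. A repeated entry was dropped, and 17 genes stand under date names. Within each library 100% of values were whole multiples of 1 step (tolerance 0.02), which gave back the reads.

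Genes were tested by limma (trend) on log2(value + 1) in all 13 libraries with condition as the single factor (9 residual degrees of freedom), on 12319 genes kept by edgeR's filterByExpr, with Benjamini-Hochberg adjustment over all of them.  The alternatives, 1 choice at a time, were the recovered reads tested by voom, edgeR or DESeq2, no TMM factor, a pseudocount of 0.1, 2 other filters, the replicate number as a block, fits of the 2 groups in question, a call on the adjusted p, and a fit without each library. On data simulated for DOX against control with 200 of 12319 genes changed 4-fold, limma recovered 70.5% with 8 false calls. The members and lists were chosen with earlier results of these data known. Named were the 6 genes, all listed family genes, from each other list up to 2 genes per direction called in DOX against control, and the 2 genes most like each called member. A further list was left out of the text.

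Deviations from the condition means of same-numbered libraries had a mean correlation of 0.15 (13 pairs), against -0.04 for others (50 pairs). Over 0.1 were 8 of the same-numbered pairs and 13 of the others, which reached 0.468. Every same-numbered pair was over 0.1 in DOX+IL-17A against IL-17A (0.168, 0.203 and 0.355), so the numbers were taken to pair libraries there, from the data and not the labels. There DOX+IL-17A replicate 2 and IL-17A replicate 3, which differ in number, were also over 0.1 (0.119). Positions are from GENCODE M21 (mm10), promoters from RefSeq (GRCm38.p6). Versions were limma 3.58.1, edgeR 4.0.16 and DESeq2 1.42.0 in R 4.3.3, and python 3.11.15.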

Additional observations from a re-analysis of the deposited data

Results flagged for a closer look

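*Epha8* was flagged in DOX replicate 1. It stood at 1.288 units (16 reads) in that library, and its distance from the next DOX library was 0.83 of the range of the 4 DOX libraries, just over the 95% critical value of Dixon's test. The 15 listed family genes were screened in DOX, the condition with 4 libraries, and chance flags about 1 in 20 groups. *Epha8* was at 0 reads in control and at 0 to 20 reads with IL-17A. DOX replicate 1 is the library in which skeletal muscle markers summed to 190 units and red blood cell markers to 66.5, and their part in the *Epha8* value was not tested.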

How the results depend on the processing

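The 3 calls, all of *Ephb2*, held in 71 of 72 alternatives. Some of these could hardly lose a call. A call on the adjusted p alone only loosens the rule. Leaving out a library of a group not compared changes the shared spread but not the log2 fold change. Over 25 settings *Ephb2* had a log2 fold change of -2.07 to -1.50 in DOX against control, -2.04 to -1.31 in DOX+IL-17A against control and -2.28 to -1.60 in DOX+IL-17A against IL-17A, and leaving out each library kept all 3 calls. With only the groups compared in the fit, DOX+IL-17A against control had 0 of the 6 genes called (adjusted p by limma 0.0515 for *Ephb2*, log2 fold change -1.62). With the replicate number as a block, *Ephb2* was at -1.69, -1.49 and -1.92 (limma, adjusted p = 0.0265, 0.0498 and 0.0114). Outside DOX+IL-17A against IL-17A, where the block ended the *Efnb3* call alone, libraries share only a number, and the block ended the call of *Ephb6* in DOX against control (limma, adjusted p = 0.0774). It also ended the call of *Adam10* in DOX+IL-17A against control (limma, adjusted p = 0.0765).

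The 33 results that were not called stayed so in 780 alternatives, but 69 of these turned the sign of a log2 fold change, in 19 results. DOX against control turned to -0.084 for *Epha2* and 0.036 for *Efnb1* with the block, to 0.13 for *Efna1* scaled by library size, and to 0.0235 for *Efnb2* without control replicate 1 and DOX replicate 1, an alternative added after the data were seen. DOX+IL-17A against control turned to -0.055 for *Epha2* with voom, and for *Efna1* to -0.22 with voom, -0.18 with edgeR, -0.19 with DESeq2, -0.47 with the block and -0.64 without those 2 libraries, which also gave -0.18 for *Efnb1*. DOX+IL-17A against DOX turned to -0.24 for *Ephb2* with voom, to 0.22, 0.25 and 0.31 for *Epha2* with edgeR, DESeq2 and the block, and with the block to -0.30 for *Efna1* and 0.0045 for *Efnb2*. IL-17A against control turned to 0.048, 0.0062 and 0.30 for *Ephb4* with voom, the block and without those 2 libraries, and to 0.064, 0.041 and 0.31 for *Epha2* with edgeR, DESeq2 and without them. The difference between the IL-17A effects turned to 0.15 for *Ephb2* and 0.02 for *Efna1* without those 2 libraries, and to 0.15, 0.21 and 0.46 for *Epha2* with edgeR, DESeq2 and the block.

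Leaving out each library in turn gave these ranges where a sign turned. In DOX against control they were -0.74 to 0.41 for *Efna1* and -0.49 to 0.01 for *Efnb2*. In DOX+IL-17A against control they were -0.24 to 1.39 for *Epha2*, -0.64 to 0.51 for *Efna1* and -0.18 to 0.33 for *Efnb1*. In DOX+IL-17A against DOX they were -0.24 to 0.36 for *Ephb2*, -0.80 to 0.83 for *Epha2* and -0.068 to 0.40 for *Efna1*. In IL-17A against control they were -0.30 to 0.30 for *Ephb4*, -0.46 to 0.55 for *Epha2* and -0.78 to 0.033 for *Efnb1*, and in DOX+IL-17A against IL-17A -0.23 to 1.40 for *Epha2*. For the difference they were -0.54 to 0.06 for *Ephb2*, -0.54 to 0.057 for *Ephb4* (-0.5476 without those 2 libraries), -0.80 to 0.83 for *Epha2* and -1.09 to 0.053 for *Efna1*. The cause of these turns was not tested.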
